A study of Mus musculus with 12 samples.

Results

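The transcripts followed here encode transcription factors, a receptor, an adaptor and a coactivator of the mouse primitive endoderm: Gata4, Gata6, Sox7, Sox17, Foxa2, Hnf4a, Pdgfra, Dab2 and Cited1. They were chosen by name, with earlier results of these data known. Every probe that is not a control and that the array's own annotation assigns to one of these 9 names was taken, which gave 12 of 55681 probes, printed in 21 of 59305 spots, for 9 of 34836 gene names. RNA of 12 samples was measured on 1-colour Agilent arrays, 1 array per sample. The groups were mouse embryonic stem cells (mESC) labelled Tbx3-high (4 samples), mESC labelled Tbx3-low (4 samples), mouse induced pluripotent stem cells (iPSC) labelled Tbx3 null (2 samples) and iPSC labelled Tbx3 wild type (2 samples). The Tbx3 gene makes a T-box factor found in pluripotent cells, and the comparisons ask how primitive endoderm transcripts differ with the Tbx3 state in each cell type. The strain, the culture medium, the means by which Tbx3-high and Tbx3-low cells were told apart, the part of Tbx3 that the null allele lacks and the number of iPSC clones are not stated in these sources.

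The primitive endoderm is the layer of the blastocyst that separates from the epiblast and later gives the visceral and parietal endoderm of the yolk sacs. FGF signalling, passed through the ERK kinases, favours it over the epiblast. Gata6 is its earliest known transcription factor and opposes Nanog, Sox17, Gata4 and Sox7 are switched on after it, and the receptor Pdgfra marks the lineage from early on. Foxa2 and Hnf4a act in the visceral endoderm, where Dab2 serves endocytosis, and Cited1 is a transcriptional coactivator that is also made there. Stem cell cultures are known to hold some cells with primitive endoderm transcripts.

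Values are log2 signals minus the 75th percentile of their array, so that 0 is the signal of a probe at that percentile and each step of 1 is a doubling. They describe 1 probe across arrays and do not rank genes against each other. A probe was tested where it was well above the local background on every array of at least 1 group compared, and a gene is called higher or lower where the adjusted p (limma, Benjamini-Hochberg over all probes tested) was under 0.05. No label says whether the samples are separate cultures, and p-values then reflect only how far these samples spread, which may be technical. In such bulk RNA a change in the number of cells that make a transcript and a change in RNA per cell cannot be told apart.

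Tbx3 itself was read first. It stood at 7.05, 7.09, 7.12 and 7.04 in Tbx3-high mESC, against 5.76, 5.77, 5.74 and 5.72 in Tbx3-low mESC, a difference of 1.33 ± 0.08 (SE; adjusted p = 7.36e-07, limma). It stood at 5.52 and 5.49 in null-labelled iPSC, against 5.01 and 5.37 in wild-type iPSC, a difference of 0.32 ± 0.11 (adjusted p = 0.0546). It passed as higher in null-labelled iPSC in 4 of 16 alternatives, with the lowest adjusted p of 0.00523 without wild-type replicate 2, where the difference was 0.50. The probe was thus not lower in the null-labelled samples, and no label says whether it lies in the deleted part. No value here settles whether the null and wild-type labels hold. Every direction below in iPSC follows these labels, and all of them would turn if the labels were exchanged. All 8 pluripotency markers, among them Pou5f1, Sox2 and Nanog, were well above background on each of the 12 arrays. The 75th percentile of the signal was 314 to 458 on mESC arrays and 700 to 1010 on iPSC arrays. Spots well above background made up 62.4% to 63.0% in null-labelled iPSC, against 68.0% to 68.6% in wild-type iPSC, and 55.9% to 64.8% on the mESC arrays. The mESC arrays shared 1 slide and scan and the iPSC arrays another, so levels were compared within a cell type only. On each slide, the Tbx3-high or null-labelled samples lay in columns 3 and 4 and the Tbx3-low or wild-type samples in columns 1 and 2, so group and column cannot be told apart.

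Each probe is a 60-base oligonucleotide placed on mm9 by the array's annotation, and no mm9 gene model was used here, so exon and UTR positions are not stated. The first 30 bases of 5 probes are printed to show what was measured, those of Sox17 because its pair of probes gave different calls and the others because their genes carry the main differences. The Sox17 probes lie at chr1:4481038-4481097 and chr1:4481503-4481562, both on the minus strand and 465 bases apart, the Hnf4a probe at chr2:163398548-163398607 (plus), the Pdgfra probe at chr5:75593888-75593947 (plus) and the Cited1 probe at chrX:99442776-99442835 (minus).
Sox17 (A_55_P2094706): cccacttcccacaaaatttgcctttaattc
Sox17 (A_55_P2157023): ctcactgacttattccatttcttgaaagtg
Hnf4a (A_55_P1959633): ggggtaaaaaagagaaaaagccctcaaaaa
Pdgfra (A_51_P345649): tgtatatatctgttgctatgtagacttgga
Cited1 (A_55_P1979833): tgagtttgatttcactgcagattttccctc

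The other probes with signal, apart from that of Gata6, lie at chr14:63817858-63817917 (Gata4, minus), chr14:64569419-64569478 (Sox7, plus), chr2:147868669-147868728 (Foxa2, minus) and chr15:6390616-6390675 (Dab2, plus). A second Foxa2 probe at chr2:147868614-147868673 overlaps the first at its end, and a second Dab2 probe at chr15:6287060-6287119, named for the transcript ENSMUST00000162140, lies 103556 bases away. Neither was well above background on any of the 12 arrays, so 10 of the 12 probes were tested in each comparison, and all 9 genes kept at least 1 tested probe.

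Because Pdgfra and Hnf4a moved with Gata6 in both cell types (values below), the 250 bases before their RefSeq starts (GRCm38.p6) are shown. RefSeq promoter entries matched 5 of the 9 genes, with 11 starts among Foxa2, Hnf4a, Pdgfra, Dab2 and Cited1. Capitals mark GATAA or its reverse complement TTATC, the core letters that GATA factors read. GGTGTG (T-box), TGTTTAC (FOXA) and ATTGTT (SOX) were also searched on both strands.
Pdgfra, chr5:75152001-75152250, plus strand: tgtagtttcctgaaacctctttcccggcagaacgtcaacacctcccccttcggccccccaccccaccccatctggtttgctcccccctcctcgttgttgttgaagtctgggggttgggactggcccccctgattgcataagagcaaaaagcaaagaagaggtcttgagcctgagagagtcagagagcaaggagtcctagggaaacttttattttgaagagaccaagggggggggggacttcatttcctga
Hnf4a, upstream start, chr2:163506607-163506856, plus strand: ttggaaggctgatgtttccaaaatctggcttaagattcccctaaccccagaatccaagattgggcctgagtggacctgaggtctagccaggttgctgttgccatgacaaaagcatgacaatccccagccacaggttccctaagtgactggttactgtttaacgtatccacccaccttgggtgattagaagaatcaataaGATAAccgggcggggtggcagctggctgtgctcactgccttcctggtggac
Hnf4a, downstream start, chr2:163546905-163547154, plus strand: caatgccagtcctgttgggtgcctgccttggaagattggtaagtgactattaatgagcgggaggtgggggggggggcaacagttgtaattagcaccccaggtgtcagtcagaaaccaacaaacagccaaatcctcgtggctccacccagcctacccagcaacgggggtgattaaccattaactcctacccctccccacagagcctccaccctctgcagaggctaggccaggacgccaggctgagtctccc

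GATAA was in 1 of these 3 windows, the one before the upstream Hnf4a start, and in 4 of the 11 windows of the 5 genes, against 22.6% of all 32851 RefSeq windows of this length. The T-box, FOXA and SOX letters were in 0 of the 11 windows, against 16.3%, 3.17% and 9.42% of all windows. No overlap between motifs arose, since only GATAA was found. A match describes letters in a window and is not a binding site.

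In mESC, 4 of the 10 tested probes passed the test, all higher in Tbx3-high cells: those of Gata6, Pdgfra, Hnf4a and 1 of the 2 Sox17 probes. Over all 30705 probes tested, 26% passed, 14.7% as higher and 11.4% as lower. The median difference of the 10 probes was 0.40, against 0.05 over all probes. In iPSC, 6 of the 10 passed, all lower in null-labelled cells: those of Gata6, Pdgfra, Hnf4a and Cited1 and both Sox17 probes. Over all 36723 probes tested, 28.1% passed, 15% as higher and 13.1% as lower, and the median difference was -0.75 for the 10 probes, against 0.04 over all probes. Gata4, Sox7, Foxa2 and Dab2 passed in neither comparison. The probes of Gata6, Pdgfra, Hnf4a and Sox17 (A_55_P2157023) were both higher in Tbx3-high mESC and lower in null-labelled iPSC, 4 of 10, and 4.7% of all 30344 probes tested in both comparisons had that pattern. In iPSC this direction rests on the null and wild-type labels, which the Tbx3 probe did not bear out. Pdgfra, counted among the 6 and the 4, entered the iPSC test only through its signal in wild-type cells. The filter thus favoured a lower value in null-labelled cells, and it was the same for all probes. The iPSC call of Pdgfra was lost with normexp, another background correction, and in the deposited series table. Higher in Tbx3-high mESC and higher in null-labelled iPSC were 0 of the 10, and 1.92% of all probes. Since the members were chosen with earlier results of these data known, these shares describe the list and do not test it.

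**Figure D1:**
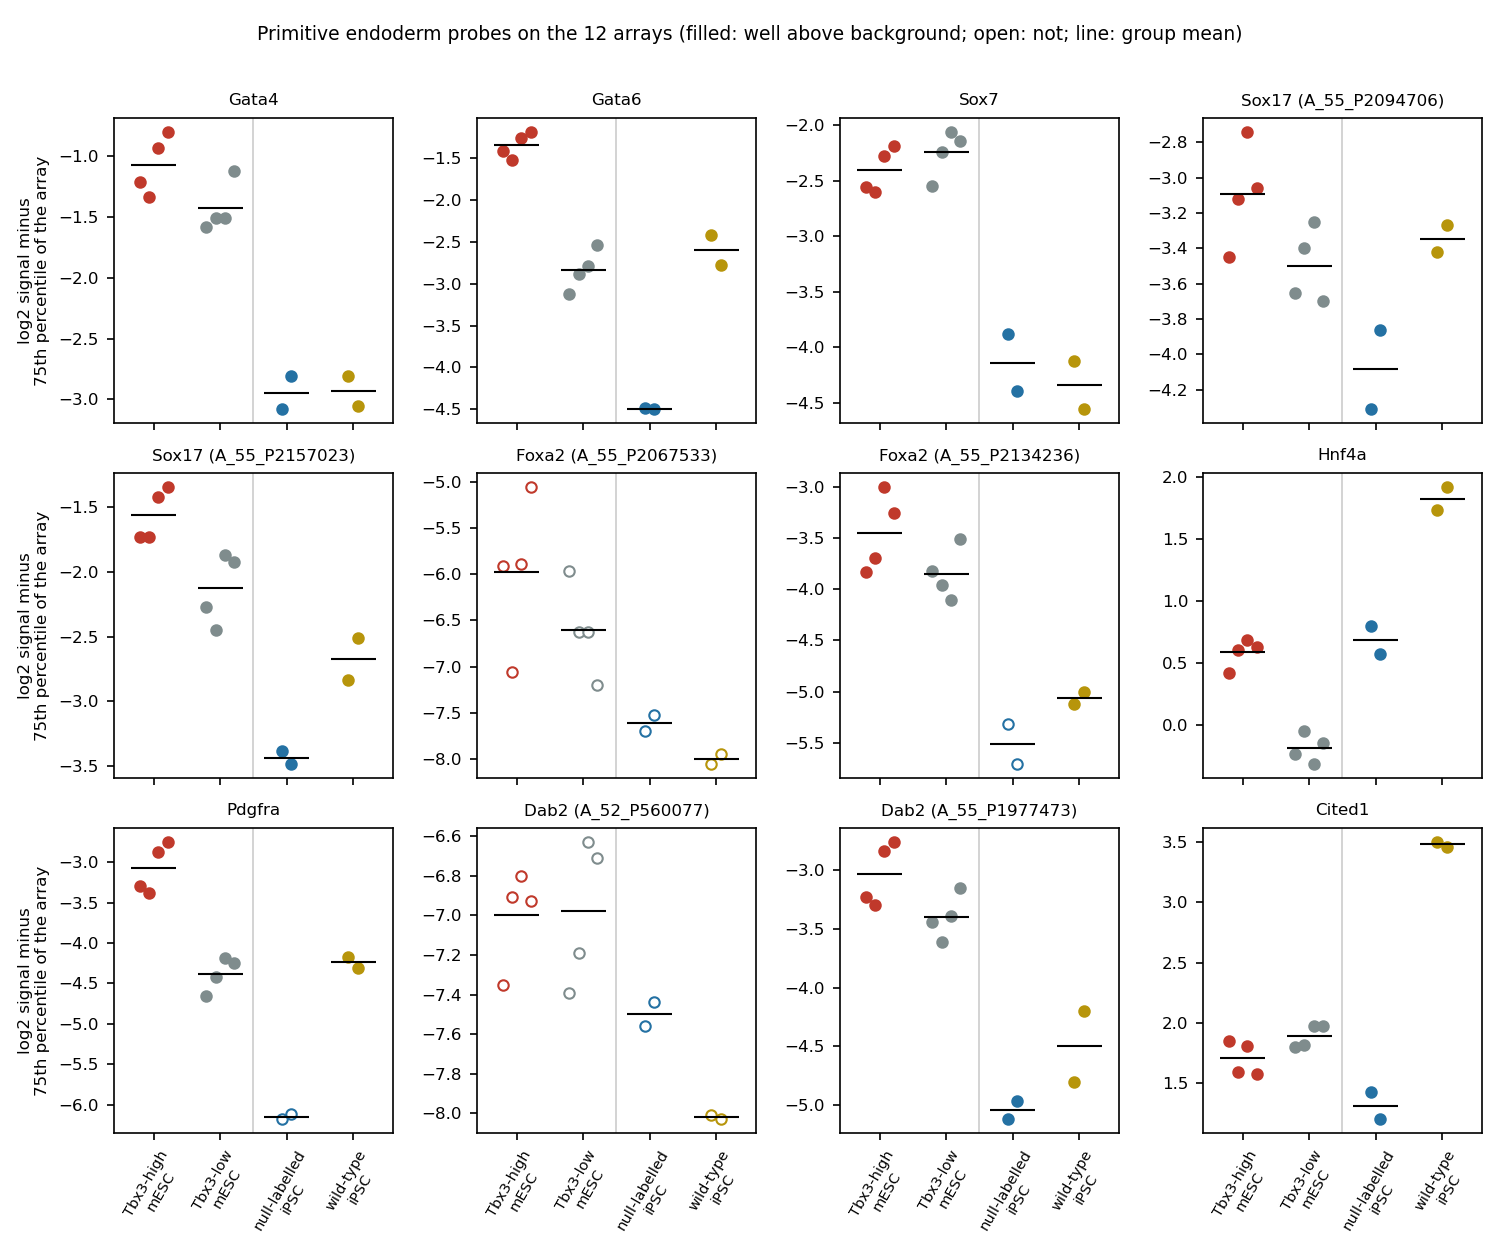
Log2 signal minus the array's 75th percentile for all 12 probes, 1 point per array, with Tbx3-high and Tbx3-low mESC left of the grey line and null-labelled and wild-type iPSC right of it; filled points are well above background, open ones are not, lines are group means, and each panel has its own axis. Among the 10 tested probes, Gata6, Pdgfra, Hnf4a and Sox17 (A_55_P2157023) separate the groups in both cell types. Cited1, Sox17 (A_55_P2094706), Foxa2 (A_55_P2134236) and Dab2 (A_55_P1977473) separate only the iPSC groups. Groups do not overlap for 4 of 10 in mESC and 8 of 10 in iPSC, against 29.4% and 66.1% of all probes. The 2 untested probes are open on all arrays.

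Gata6 (probe at chr18:11085039-11085097, plus strand) showed the largest mESC difference among the 10 probes. This zinc-finger factor starts the primitive endoderm programme. It read -1.41, -1.52, -1.25 and -1.18 in Tbx3-high mESC, against -3.12, -2.88, -2.79 and -2.53 in Tbx3-low mESC. All 4 Tbx3-high samples were above all 4 Tbx3-low samples, which 29.4% of all probes also showed in 1 direction or the other. The difference was 1.49 ± 0.13 (SE; 2.81-fold higher, adjusted p = 1.38e-05, limma). In null-labelled iPSC Gata6 read -4.49 and -4.50, against -2.41 and -2.77 in wild-type iPSC. The null-labelled samples lay together and below both wild-type samples, without overlap, as 66.1% of all probes also did in 1 direction or the other with 2 samples a group. Gata6 was lower by 3.75-fold in null-labelled iPSC (-1.91 ± 0.19, adjusted p = 4.94e-05). On values corrected by normexp, another background correction, the size of both Gata6 differences was less, 0.78 in mESC and -0.93 in iPSC, and both still passed.

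Gata4, the zinc-finger partner of Gata6 in the committed endoderm, did not follow it beyond the test. Gata4 read -1.21, -1.34, -0.93 and -0.80 in Tbx3-high mESC, against -1.58, -1.51, -1.51 and -1.12 in Tbx3-low mESC. The groups overlapped through Tbx3-low replicate 4, and the difference of 0.36 ± 0.14 did not pass (95% interval 0.04 to 0.67, adjusted p = 0.0903). Without that sample it passed (0.46, adjusted p = 0.0342). In iPSC it read -3.08 and -2.81 in null-labelled cells, against -2.81 and -3.05 in wild-type cells. These 4 values covered the same range (-0.01 ± 0.21, interval -0.47 to 0.45, adjusted p = 0.975).

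The SOX factors of this lineage, Sox7 and Sox17, both belong to the F group of the family. Sox17 (A_55_P2157023) read -1.73, -1.73, -1.42 and -1.34 in Tbx3-high mESC, against -2.27, -2.45, -1.87 and -1.92 in Tbx3-low mESC. The groups did not overlap, and Sox17 by this probe was 1.49-fold higher (0.57 ± 0.15, adjusted p = 0.0153). The other probe, A_55_P2094706, read -3.45, -3.12, -2.74 and -3.06 in Tbx3-high mESC, against -3.65, -3.40, -3.25 and -3.70 in Tbx3-low mESC. It pointed the same way, its groups overlapped through Tbx3-high replicate 1, and 0.41 ± 0.16 did not pass (adjusted p = 0.09), while without that sample it did (0.52, adjusted p = 0.0341).

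In iPSC both Sox17 probes were lower in null-labelled cells. A_55_P2157023 read -3.39 and -3.49 in null-labelled iPSC, against -2.84 and -2.51 in wild-type iPSC (-0.76 ± 0.22, 1.69-fold lower, adjusted p = 0.0246). A_55_P2094706 read -4.31 and -3.86 in null-labelled iPSC, against -3.42 and -3.27 in wild-type iPSC (-0.74 ± 0.23, 1.67-fold lower, adjusted p = 0.0399). These were the weakest of the iPSC calls. Both were lost with quantile normalization (-0.67, adjusted p = 0.0722, and -0.62, adjusted p = 0.101) and with normexp (-0.38, adjusted p = 0.0522, and -0.25, adjusted p = 0.238), and each was lost when 3 of the 4 iPSC samples were left out in turn, where values ran from -0.93 to -0.60 and from -0.96 to -0.51. For A_55_P2157023 these were both null-labelled samples and wild-type replicate 2, and for A_55_P2094706 null-labelled replicate 1 and both wild-type samples.

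Sox7, the other SOX factor, did not differ beyond its spread. It read -2.56, -2.60, -2.28 and -2.19 in Tbx3-high mESC, against -2.55, -2.24, -2.06 and -2.14 in Tbx3-low mESC (-0.16 ± 0.16, interval -0.51 to 0.19, adjusted p = 0.517). In iPSC it read -3.88 and -4.40 in null-labelled cells, against -4.13 and -4.56 in wild-type cells (0.20 ± 0.23, interval -0.32 to 0.72, adjusted p = 0.59). The groups overlapped in both cell types.

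Hnf4a, a nuclear receptor needed in the visceral endoderm, read 0.42, 0.60, 0.68 and 0.63 in Tbx3-high mESC, against -0.24, -0.05, -0.32 and -0.15 in Tbx3-low mESC. All Tbx3-high samples were higher, by 1.71-fold on average (0.77 ± 0.09, adjusted p = 0.000119). It read 0.80 and 0.57 in null-labelled iPSC, against 1.73 and 1.92 in wild-type iPSC. Here both null-labelled samples were lower, by 2.2-fold (-1.14 ± 0.13, adjusted p = 0.000136). With normexp, the Hnf4a differences were 0.67 in mESC and -1.15 in iPSC, and both passed.

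Foxa2, a forkhead factor of visceral and definitive endoderm, was faint. The probe with signal read -3.83, -3.70, -3.00 and -3.26 in Tbx3-high mESC, against -3.82, -3.96, -4.11 and -3.51 in Tbx3-low mESC, and the groups overlapped (0.40 ± 0.19, adjusted p = 0.153). In iPSC it read -5.32 and -5.71 in null-labelled cells, where it was not well above background, against -5.12 and -5.00 in wild-type cells, where it was. Taking the null-labelled samples no lower than the faintest signal well above background gives at least 1.17-fold lower in null-labelled cells, and the difference of -0.46 ± 0.28 did not pass (adjusted p = 0.27).

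Pdgfra, the receptor for PDGF ligands, was read by 1 probe printed in 10 spots. The array values, each a mean over the spots without an outlier mark, were -3.30, -3.38, -2.88 and -2.75 in Tbx3-high mESC, against -4.65, -4.42, -4.19 and -4.25 in Tbx3-low mESC. The groups did not overlap (1.30 ± 0.15, 2.46-fold higher, adjusted p = 9.49e-05). The SD between spots of 1 array was 0.07 to 0.25 in Tbx3-high mESC, against 0.28 to 0.34 in Tbx3-low mESC. All 39 usable spots of the Tbx3-high arrays were well above background, against 33 of 39 on the Tbx3-low arrays.

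In null-labelled iPSC Pdgfra read -6.18 and -6.11, against -4.17 and -4.31 in wild-type iPSC. Only 1 of 20 spots was well above background in the null-labelled samples, against 19 of 19 in the wild-type samples. The SD between spots was 0.67 and 0.37 in null-labelled iPSC, against 0.10 and 0.20 in wild-type iPSC. The fit gave -1.90 ± 0.22 (adjusted p = 0.000126), and the fold is a bound, at least 2.22-fold lower in null-labelled cells, since the probe was dim there. The share of all spots well above background was also lower on these arrays (62.4% to 63.0%, against 68.0% to 68.6%), and its part in the result was not tested. The call was lost with normexp (-0.28, adjusted p = 0.151) and in the deposited series table (-0.42, adjusted p = 0.0717), and it held with signals floored at the faintest one well above background (-1.14, adjusted p = 0.00266). In mESC, Pdgfra passed in each of these settings, with 0.40 by normexp and 0.57 in the series table.

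**Figure D2:**
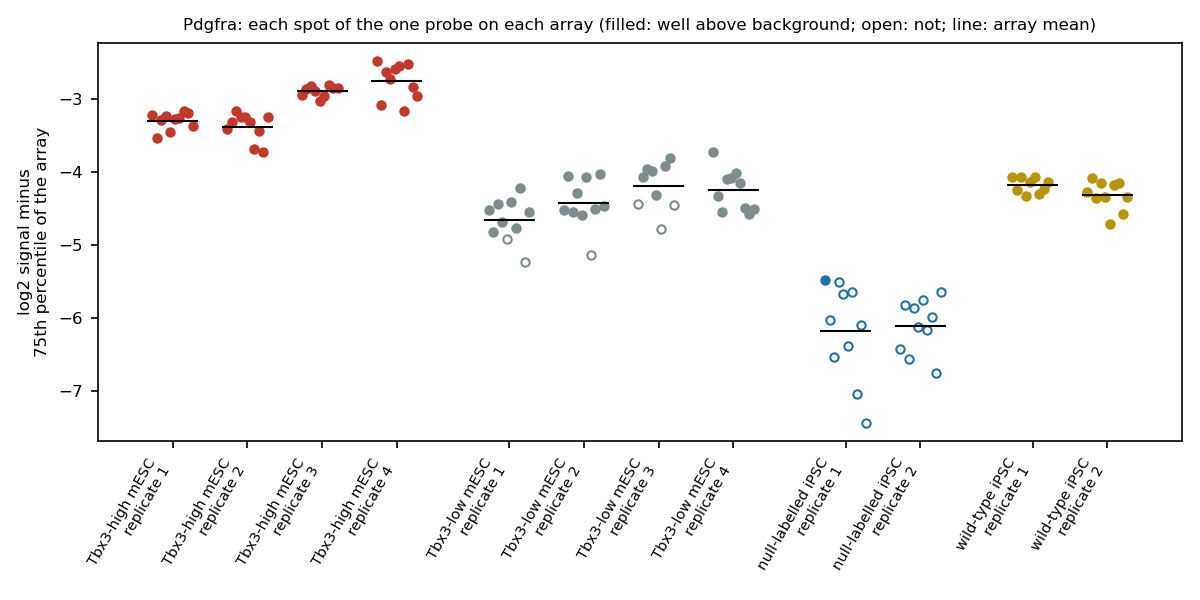
Each usable Pdgfra spot on each array, as log2 signal minus the array's 75th percentile, with filled points well above background, open points not, and lines at the array mean. The Tbx3-high mESC arrays (means -3.38 to -2.75) lie above the Tbx3-low mESC arrays (-4.66 to -4.19), and in the null-labelled iPSC arrays 1 of 20 spots is filled, against 19 of 19 in wild-type iPSC.

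Dab2, an adaptor that links endocytic receptors to clathrin, gave values of -3.23, -3.30, -2.84 and -2.76 in Tbx3-high mESC, against -3.44, -3.61, -3.39 and -3.15 in Tbx3-low mESC. The groups overlapped by Tbx3-low replicate 4, and 0.37 ± 0.17 did not pass (interval 0.00 to 0.73, adjusted p = 0.133). In iPSC it read -5.12 and -4.96 in null-labelled cells, against -4.80 and -4.20 in wild-type cells. Both null-labelled samples were the lower ones, and -0.54 ± 0.24 did not pass (adjusted p = 0.132).

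Cited1 was the member that parted the cell types. It read 1.85, 1.59, 1.81 and 1.58 in Tbx3-high mESC, against 1.80, 1.82, 1.97 and 1.97 in Tbx3-low mESC. The groups overlapped and the mean was slightly lower in Tbx3-high cells (-0.18 ± 0.09, interval -0.38 to 0.01, adjusted p = 0.163). It passed as lower with quantile normalization (-0.23, adjusted p = 0.041) and in the series table (-0.23, adjusted p = 0.0326). In null-labelled iPSC Cited1 read 1.43 and 1.20, against 3.50 and 3.46 in wild-type iPSC. That is 4.48-fold lower (-2.16 ± 0.13, adjusted p = 1.36e-06), and the groups did not overlap.

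**Figure D3:**
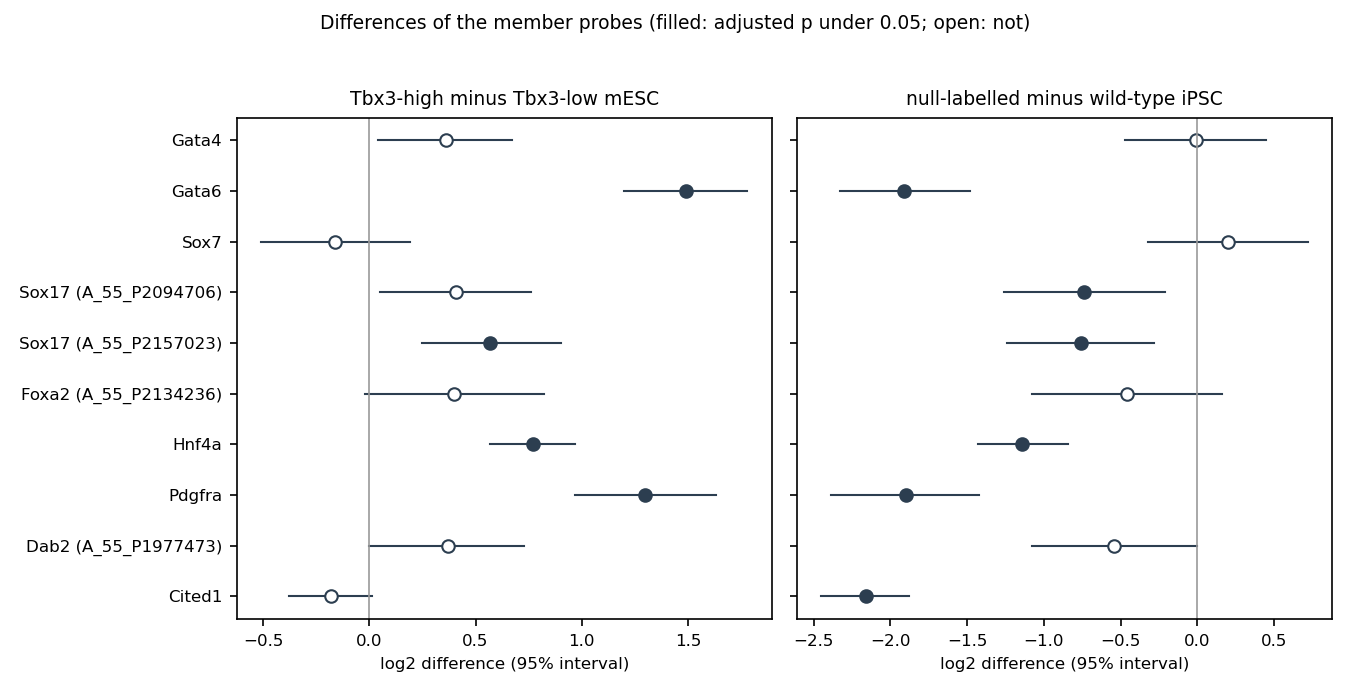
Log2 difference of the 10 tested probes with its 95% interval, Tbx3-high minus Tbx3-low mESC on the left and null-labelled minus wild-type iPSC on the right; filled points passed at an adjusted p under 0.05. Gata6 (1.49 and -1.91), Pdgfra (1.30 and -1.90) and Hnf4a (0.77 and -1.14) lie on opposite sides of 0, while Cited1 is at -0.18 and -2.16.

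The labels of the mESC samples number them 1 to 4 in both groups, and same-numbered samples deviated from their group means together, with correlations across probes of 0.198, 0.294, 0.215 and 0.138. Blocking on the replicate number, 7 of the 10 probes passed in mESC in place of 4, while 26.2% of all probes passed. The 3 added were Gata4 (0.36, adjusted p = 0.0482), Sox17 A_55_P2094706 (0.41, adjusted p = 0.0241) and Dab2 (0.37, adjusted p = 0.0329), each higher in Tbx3-high cells. Blocking on the slide row instead, 5 of the 10 passed and 30.9% of all probes did; Gata4 was then the 1 added (adjusted p = 0.0282), and Sox17 A_55_P2094706 (adjusted p = 0.0696) and Dab2 (adjusted p = 0.0516) did not pass. Replicates 1 and 2 of both groups lay in slide row 1 and replicates 3 and 4 in row 2, and between rows the correlations were -0.384 to -0.091. Deviations from a group mean cancel out within the group, so positive values within rows entail negative ones between rows. Differently numbered samples of the same row had correlations of 0.05, 0.412, 0.30 and 0.162. The correlations thus do not tell a pairing by number from the shared slide row. Within row 1 alone Gata6 differed by 1.54, Pdgfra by 1.20, Hnf4a by 0.65 and Sox17 A_55_P2157023 by 0.63, and within row 2 alone by 1.45, 1.40, 0.89 and 0.52, and all of these passed.

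Whether the mESC and iPSC differences had unequal size was tested as (Tbx3-high minus Tbx3-low) minus (wild-type minus null-labelled). Only Cited1 passed, 1 of 10 probes, where 22.9% of all 37084 probes did, 12.7% as higher and 10.2% as lower. Its value was -2.35 ± 0.16 (interval -2.70 to -2.0, adjusted p = 6.67e-06). For Gata6 the value was -0.42 ± 0.23 (interval -0.94 to 0.10, adjusted p = 0.246), for Hnf4a -0.36 ± 0.16 (adjusted p = 0.141) and for Pdgfra -0.60 ± 0.27 (adjusted p = 0.141), which does not show that they were equal. The sign of the Pdgfra value turned with normexp (0.12), in the series table (0.15) and with floored signals (0.15). Pdgfra passed this test with the slide row as a block (-0.60, adjusted p = 0.0118) and with slide row 1 alone (-0.70, adjusted p = 0.0386), and Hnf4a passed with normexp (-0.48, adjusted p = 0.0362) and in the series table (-0.53, adjusted p = 0.0122).

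**Figure D4:**
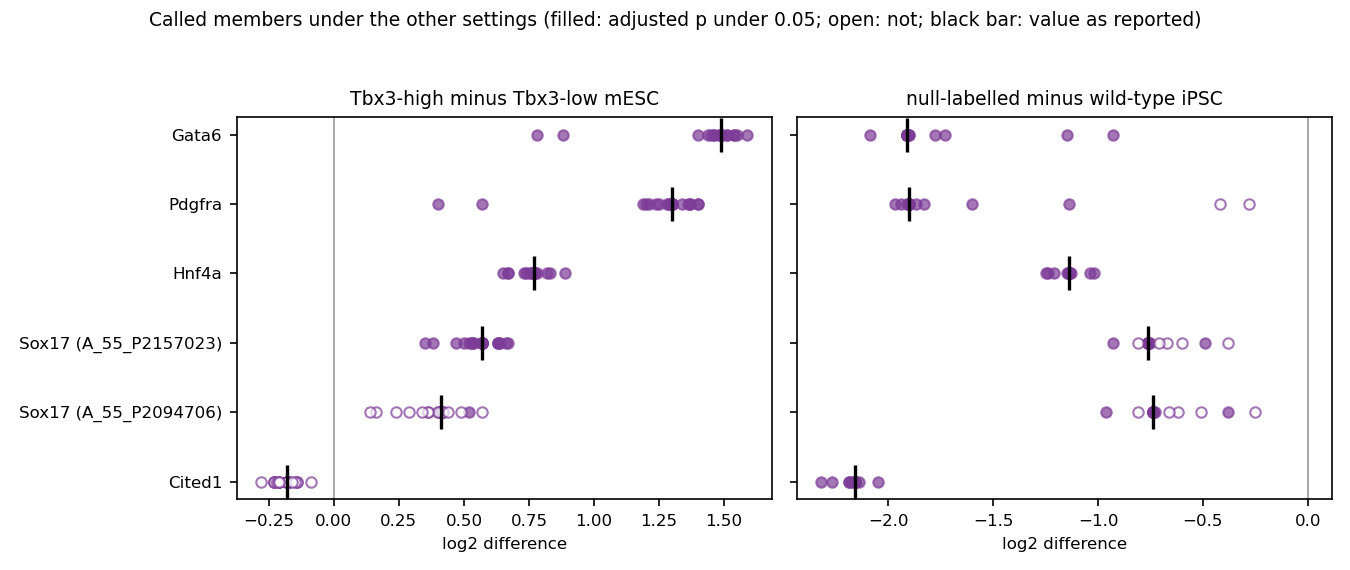
Log2 differences of 6 probes in each other setting and with each sample left out (points, filled where the adjusted p was under 0.05), with the reported value as a black bar; left, Tbx3-high minus Tbx3-low mESC, right, null-labelled minus wild-type iPSC. Gata6 runs from 0.78 to 1.59 in mESC and stays filled, while Pdgfra in iPSC has open points at -0.42 and -0.28 and both Sox17 probes have open points in iPSC.

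The FGF and PDGF signals lie upstream of the lineage. Of 16 genes of this list tested, 5 were higher, 3 lower and 8 did not pass in Tbx3-high mESC, with a median of 0.10 against 0.04 over all genes, of which 26.9% passed. Among the ligands of Pdgfra, Pdgfa was higher (1.20 ± 0.08, adjusted p = 3.12e-06), Pdgfc was higher (0.58 ± 0.10, adjusted p = 0.00107) and Pdgfb was lower (-0.74 ± 0.11, adjusted p = 0.000603). In null-labelled iPSC Pdgfa was higher (0.37 ± 0.12, adjusted p = 0.0439), Pdgfb was higher (1.32 ± 0.16, adjusted p = 2e-04) and Pdgfc was at 0.29 (adjusted p = 0.15). The iPSC call of Pdgfa was lost in 9 of 16 alternatives (adjusted p up to 0.31). The FGF feedback genes Spry2 and Spry4, which damp receptor signals, were higher in Tbx3-high mESC (1.07 and 0.55) and lower in null-labelled iPSC (-1.83 and -1.05). Fgf4, the ligand made by the epiblast, was lower in Tbx3-high mESC (-0.34, adjusted p = 0.00371). The FGF receptor Fgfr2 was lower there too (-0.38, adjusted p = 0.0231), though its groups overlapped. In null-labelled iPSC Fgf4 and Fgfr2 were higher (0.30, adjusted p = 0.0425, and 0.46, adjusted p = 0.0493). Fgfr1, another FGF receptor, stood at 0.08 in mESC and 0.13 in iPSC and passed in neither. The iPSC calls were lost in 10 of 16 alternatives for Fgf4 (adjusted p up to 0.468) and in 7 of 16 for Fgfr2 (up to 0.236), and the mESC call of Fgfr2 was lost in 8 of 23 (up to 0.204). In iPSC, 7 of the 16 were higher, 3 lower and 6 did not pass, with a median of 0.21 against 0.06 over all genes, of which 29.8% passed. The higher ones also included Mapk3 (0.73, adjusted p = 0.00193), Map2k2 (0.44, adjusted p = 0.00278) and Ptpn11 (0.35, adjusted p = 0.00978, limma). In mESC Mapk3, Map2k2 and Ptpn11 stood at 0.06, 0.06 and 0 and did not pass.

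Of the 12 family relatives of the members, 11 were tested in mESC, where 5 were higher, 2 lower and 4 did not pass, and 10 in iPSC, where 5 were higher, 4 lower and 1 did not pass. Their median differences were 0.02 and 0.23, against 0.04 and 0.06 over all genes. Of all genes, 26.9% passed in mESC (15.2% as higher, 11.7% as lower) and 29.8% in iPSC (16.2% as higher, 13.5% as lower). Pdgfrb, the other PDGF receptor, was 3.57-fold higher in Tbx3-high mESC (1.83 ± 0.10, adjusted p = 5.86e-07) and 4.68-fold lower in null-labelled iPSC (-2.23 ± 0.14, adjusted p = 2.69e-06). Cited2 and Cited4, coactivators related to Cited1, were each 2.03-fold higher in Tbx3-high mESC (both 1.02 ± 0.11) and lower in null-labelled iPSC (both -1.36 ± 0.15), from separate probes with different levels. Cited1 thus stood at -0.18 in mESC while both relatives were called higher there. Dab1 was higher in Tbx3-high mESC (0.64 ± 0.06) and lower in null-labelled iPSC (-0.48 ± 0.08).

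Gata3, a trophoblast factor related to Gata6, went the other way, at -1.57 ± 0.08 in Tbx3-high mESC (2.97-fold lower, adjusted p = 4.15e-07) and 0.77 ± 0.12 in null-labelled iPSC (1.71-fold higher, adjusted p = 0.000788). The blood factors Gata1 (1.10) and Gata2 (0.69) and the endoderm and heart factor Gata5 (0.57) were higher in null-labelled iPSC, and in mESC they stood at -0.20, -0.17 and 0.02 and did not pass. Foxa1 was higher in Tbx3-high mESC (0.48, adjusted p = 0.00792), and Foxa3 was 3.09-fold higher in null-labelled iPSC (1.63 ± 0.17, adjusted p = 6.92e-05). Sox18 was dim in Tbx3-high mESC and at least 1.49-fold lower there (adjusted p = 0.0113), and Hnf4g was not well above background on any array. Zfpm1, a cofactor of GATA proteins, was lower in null-labelled iPSC (-0.36, adjusted p = 0.0419), a call lost in 7 of 16 alternatives (adjusted p up to 0.223). The calls of Sox18 and Foxa1 in mESC were lost in 3 of 22 and 2 of 23 alternatives (adjusted p up to 0.249 and 0.268), normexp among them, and that of Gata5 in iPSC in 6 of 16 (up to 0.145).

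**Figure D5:**
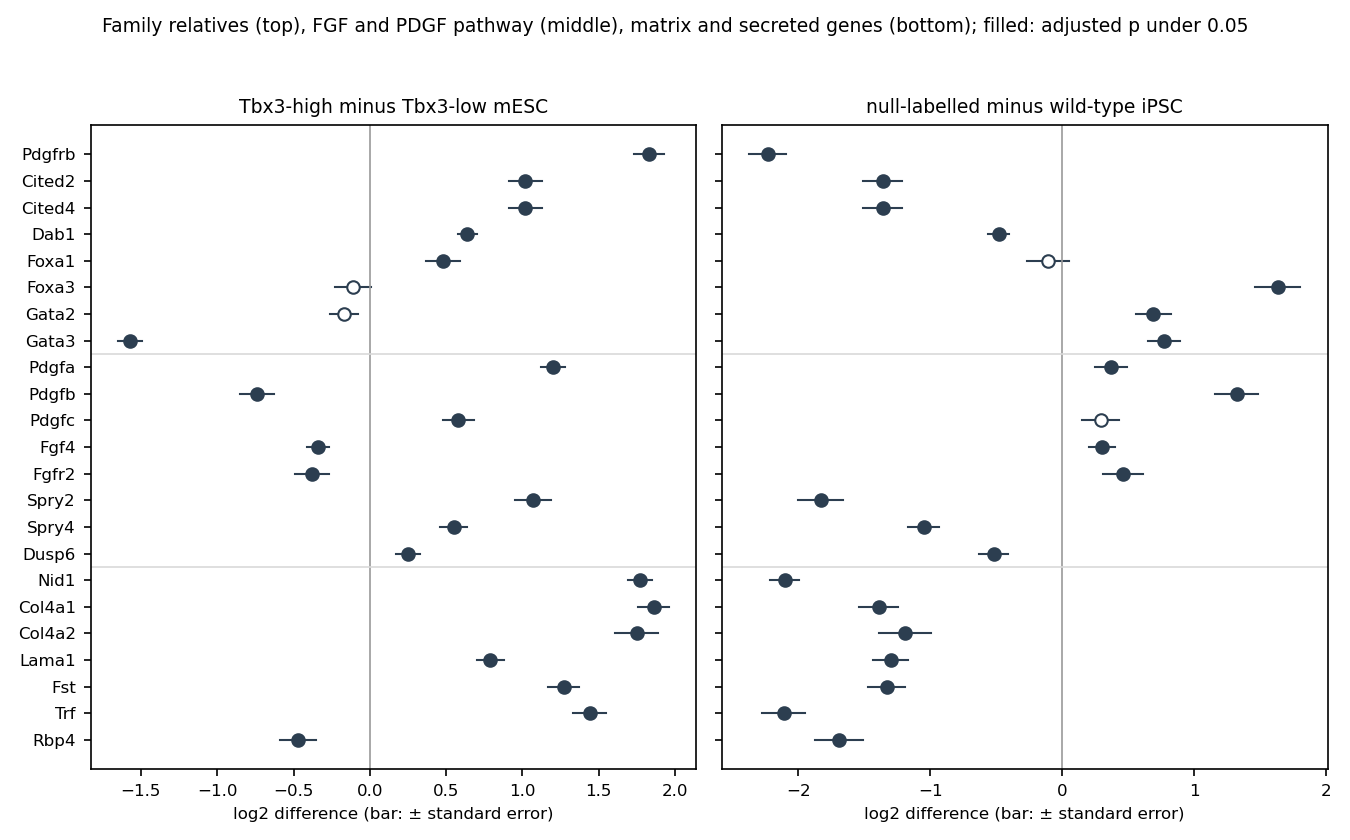
Log2 difference ± standard error for family relatives of the members (top), FGF and PDGF pathway genes (middle) and matrix or secreted genes (bottom), Tbx3-high minus Tbx3-low mESC on the left and null-labelled minus wild-type iPSC on the right; filled points passed. Pdgfrb, Cited2, Cited4, Spry2, Nid1 and Col4a1 are above 0 on the left and below 0 on the right, and Gata3 and Pdgfb lie the other way.

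Of 12 further endoderm transcription factors, 4 were higher, 2 lower and 5 of 11 tested did not pass in Tbx3-high mESC. Hhex (0.39), Nr5a2 (0.56), Klf5 (0.45) and Creb3l2 (0.49) were the 4 higher ones, and all 4 were lower in null-labelled iPSC (-1.0, -0.66, -0.86 and -1.03), where 1 of 12 was higher, 5 were lower and 6 did not pass. The medians of the list were 0.17 in mESC and -0.48 in iPSC, against 0.04 and 0.06 over all genes, of which 26.9% and 29.8% passed.

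Products of endoderm cells were read by other lists. Over all genes, 26.9% passed in mESC and 29.8% in iPSC, with medians of 0.04 and 0.06. Of 8 parietal endoderm markers, 5 were higher, 1 lower and 2 did not pass in Tbx3-high mESC, while 2 were higher, 4 lower and 2 did not pass in null-labelled iPSC, with medians of 0.44 and -0.43. The basement membrane collagens Col4a1 (1.86) and Col4a2 (1.75) and the laminin chain Lama1 (0.79) were higher in Tbx3-high mESC and lower in null-labelled iPSC (-1.39, -1.19 and -1.30). Of 13 endocytic and matrix genes, 6 were higher, 2 lower and 5 did not pass in mESC, and 2 were higher, 6 lower and 5 did not pass in iPSC, with medians of 0.24 and -0.26. Nid1, which joins laminin to collagen, was 3.41-fold higher in Tbx3-high mESC (1.77 ± 0.08, adjusted p = 1.33e-07) and 4.27-fold lower in null-labelled iPSC (-2.10 ± 0.11). Fst, an activin-binding protein, was higher (1.27) and lower (-1.33) in the same order of cell types. Lrp2, an endocytic receptor bound by Dab2, was lower in Tbx3-high mESC (-1.11, adjusted p = 4.19e-05) and higher in null-labelled iPSC (0.74, adjusted p = 0.00749). Lamb1, another laminin chain, was lower in both Tbx3-high mESC (-0.41) and null-labelled iPSC (-0.66).

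Some defining visceral endoderm products were not well above background in most groups. Of 8 markers, Ttr was not well above background on any array, Afp on no mESC and no null-labelled iPSC array, and Apoa1 and Apob on no null-labelled iPSC and no Tbx3-low mESC array. Among the Tbx3-high samples, Apoa1 and Apob were well above background only in replicate 4, at -3.25 and -2.70, against -6.30 to -6.13 and -6.84 to -6.29 in the other 3. Among the wild-type iPSC samples, Apob was well above background in 1 of 2 and Apoa1 in 0. Among the 4 tested in mESC, Trf was higher (1.44, adjusted p = 4.65e-06), Rbp4 was lower (-0.47, adjusted p = 0.0151) and 2 did not pass. In null-labelled iPSC 4 of 5 were lower, among them Afp (at least 2.42-fold) and Trf (-2.11), and Amn was higher (0.79, adjusted p = 0.0019). The medians of the tested markers were 0.12 in mESC and -1.69 in iPSC, against 0.04 and 0.06 over all genes, of which 26.9% and 29.8% passed. The summed level of the 8 markers, as a multiple of each array's 75th percentile, was 6.69 to 8.59 in Tbx3-high mESC, against 4.0 to 4.58 in Tbx3-low mESC, and 2.58 to 3.42 in null-labelled iPSC, against 11.0 to 12.2 in wild-type iPSC. The gap between the sums lay largely in Trf, whose mean log2 value was 2.47 in Tbx3-high mESC, against 1.03 in Tbx3-low mESC. In iPSC the Trf mean was 1.27 in null-labelled cells, against 3.38 in wild-type cells. The sums thus mainly follow 1 gene and do not describe the markers as a set.

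Some markers of other cells moved with the groups as well, where 26.9% of all genes passed in mESC and 29.8% in iPSC, with medians of 0.04 and 0.06. Of 8 fibroblast markers, 5 were tested in mESC and 2 were higher, Pdgfrb and Col1a1 (1.54), and 7 were tested in iPSC, where the same 2 were lower (Col1a1 at -2.33). Postn was not well above background on any array, and Dcn on no Tbx3-high mESC array. The list's median in iPSC was -0.31. Their summed level was 3.30 to 28.4 in Tbx3-high mESC, against 2.73 to 2.96 in Tbx3-low mESC, and 1.18 to 1.24 in null-labelled iPSC, against 2.39 to 2.54 in wild-type iPSC. The value of 28.4 was Tbx3-high replicate 2, where Thy1 alone read 4.75, against 0.75 to 0.97 in the other 3 Tbx3-high samples. The list's median in mESC was 0.77 with that sample and 0.36 without it, a setting chosen for this list after the data were seen, with 2 of 5 higher in both cases. Without it 5 of the 10 member probes passed in mESC, since Gata4 joined the other 4 (0.45, adjusted p = 0.0471), where 22.3% of all probes passed. Of 8 trophoblast markers, 5 of 6 tested were lower and 0 higher in Tbx3-high mESC, among them Gata3 and Krt18 (-1.72), and 3 of 6 were higher and 0 lower in null-labelled iPSC, with medians of -1.47 and 0.50. Of 6 mesendoderm markers tested in each comparison, 3 were higher and 0 lower in Tbx3-high mESC, and 0 were higher and 2 lower in null-labelled iPSC, with medians of 0.51 and -0.18. The part of other cells in the member results was not tested.

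Patterns like that of Gata6 were ranked by Pearson correlation over the 12 arrays after each slide's mean was subtracted, 1 probe per gene, among 25169 genes. The 5 highest were the transcript ENSMUST00000064591 (r = 0.993), Nid1 (0.990), the transglutaminase Tgm2 (0.989), the solute carrier gene Slc41a3 (0.989) and the RNA-binding protein gene Cpeb3 (0.988). Tgm2 was 3.02-fold higher in Tbx3-high mESC and 4.23-fold lower in null-labelled iPSC. Among the members Pdgfra had r = 0.987 and rank 8, Hnf4a 0.955 and rank 177, and the Sox17 probes 0.890 and 0.777. Foxa2 (0.701), Dab2 (0.736), Gata4 (0.598) and Cited1 (0.571) were looser, and Sox7 had -0.256. The points share the 4 group means, so the measure mainly ranks genes by how alike those means lie, and no p is given.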

How the data were processed

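Per the labels' protocols, RNA was isolated on RNeasy columns and 50 ng of it labelled by the Low Input Quick Amp method. Per the file headers, arrays were read with Agilent Feature Extraction 10.7.3.1, which gave the deposited processed signal, a background-corrected intensity per spot, and the flag that a spot is well above background. The authors also deposited a series table of log2 values, whose normalization the sources used here do not give and which followed the log2 mean signal with r of at least 0.9988; it served as an alternative.

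Here log2 intensity minus each array's 75th percentile was used. Control spots and spots marked as outliers were left out, and spots of 1 probe were averaged on the log2 scale. On an array, a probe was taken as well above background where more than 50% of its spots were, a rule set after the files were seen to hold probes in several spots; asking it of all spots was tried as well. The 4 group means over 12 arrays were fitted with limma 3.58.1 in R 4.3.3 (lmFit, eBayes), with Benjamini-Hochberg adjustment over all probes tested and a threshold of 0.05, on 8 residual degrees of freedom. Arrays give no counts, so their number limits the precision. No 2 arrays of a group were identical (r 0.9834 to 0.991). Marker lists used 1 probe per gene, the one with the highest mean signal. At least-fold bounds set the dim group no lower than the faintest probe well above background on each array. The fit was tested on simulated data. The mESC replicate numbers were taken to pair samples in the replicate block because all 4 same-number correlations exceeded 0.1. Differently numbered samples of 1 slide row reached 0.412, and same-numbered samples always shared a row. That rule therefore could not tell a pairing by number from the slide row. The members and lists were chosen with earlier results of these data known. The named genes were all member probes, their family relatives, ligands, receptors and partners, up to 5 genes per list with the smallest adjusted p, and the 5 genes most like Gata6. Other settings tried were another background correction, quantile normalization, the series table, other filters, blocks, array weights, 1 probe per gene and leaving out each sample.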

Additional observations from a re-analysis of the deposited data

Results flagged for a closer look

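Gata4 in Tbx3-low mESC replicate 4 read -1.12, apart from the other 3 Tbx3-low samples at -1.58 to -1.51, and its gap exceeded Dixon's 95% critical value for 4 samples. This was 1 of 20 groups of 4 samples tested, and chance marks about 1 in 20. Cited1 differed between the cell types, with (Tbx3-high minus Tbx3-low) minus (wild-type minus null-labelled) at -2.35 (adjusted p = 6.67e-06, limma). Tbx3 itself differed by the same test, at 1.65 (adjusted p = 2.4e-05).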

How the results depend on the processing

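The 11 member calls gave 198 of 212 alternative values on the same side of the threshold and 14 on the other side of it, all in the same direction, and the lost ones were those of Sox17 and Pdgfra in iPSC. The 70 calls of other genes gave 1278 of 1358 values on the same side and 80 lost, none with the sign turned, among them Dusp6 in mESC (lost in 12 of 23) and Afp in iPSC (1 of 15, adjusted p = 0.581 in the series table). With the replicate block, 7 member probes passed in mESC in place of 4 (26.2% of all probes, against 26%), and in iPSC Dab2 passed as well (adjusted p = 0.0399). With the slide row as a block it was 5 member probes and 30.9% of all. With normexp, 3 member probes passed in iPSC in place of 6, and 27.2% of all probes, against 28.1%. In the test of the difference, 2 passed in place of 1 with normexp, the series table, the slide row as a block and slide row 1 alone. Over all probes, 4725 passed in mESC within row 1 alone and 4441 within row 2 alone, in place of 7998, each on 4 fewer samples. Leaving out 1 sample gave 4 to 5 member probes and 6749 to 7309 of all probes in mESC, 4 to 5 and 6842 to 8287 in iPSC, and 1 and 5696 to 8012 for the difference. The lowest iPSC count, against 10324 with all samples, came without wild-type replicate 1. Signs turned only for values that had not passed. Foxa2 in iPSC was 0.12 with normexp, and its difference between cell types was 0.24 with normexp, 0.10 with quantile normalization, 0.09 in the series table, 0.18 with floored signals, 0.22 in row 2 alone and -0.25 to 0.14 with single samples left out. The Pdgfra difference was 0.12, 0.15 and 0.15 with normexp, the series table and floored signals, and that of Dab2 was 0.12 with normexp and -0.48 to 0.13 with single samples left out. Gata4 in iPSC was 0.10 with quantile normalization, and -0.15 to 0.12 with single samples left out. Sox7 ran from -0.06 to 0.46 in iPSC and from -0.22 to 0.30 in the difference with single samples left out. In mESC Gata5 was -0.24 in row 1 alone and -0.06 to 0.13 with single samples left out, and Foxa3 was 0.05 in row 2 alone. Gata4 in mESC passed in 4 of 23 alternatives, with values from 0.22 to 0.46. The causes were not tested. Foxa2 and Pdgfra were not well above background in null-labelled iPSC, nor was Sox18 in Tbx3-high mESC. The tested Dab2 probe was well above background on all 12 arrays.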

Other observations

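Some mesendoderm and pluripotency genes also differed. Eomes, a T-box factor of mesendoderm and trophoblast, was higher in Tbx3-high mESC (1.40, adjusted p = 4.89e-06, limma) and lower in null-labelled iPSC (-1.66, adjusted p = 2.78e-05). T (Brachyury), the T-box factor of the primitive streak, was at 0.62 in mESC (adjusted p = 0.102) and lower in null-labelled iPSC (-3.83, adjusted p = 4.46e-05). Of 8 pluripotency markers, 3 were higher and 1 lower in Tbx3-high mESC, and 0 passed in iPSC, where Pou5f1 was at 0.44 (adjusted p = 0.187). Over all genes, 26.9% passed in mESC and 29.8% in iPSC. Esrrb (0.50) and Zfp42 (0.46) were among those higher in Tbx3-high mESC. The trophoblast factors Tfap2c (-1.40) and Hand1 (-1.54) were lower there.

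Probes more than 4-fold above every other array of their group numbered 68, 123, 343 and 346 in Tbx3-high mESC replicates 1 to 4, against 58, 55, 418 and 377 in Tbx3-low mESC. In both groups the samples of slide row 2 held more of them than those of row 1.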
